A study of Mus musculus with 4 samples.

Results

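The Epithelial Cell class of the developing mouse superior colliculus comprised 102 of 9724 nuclei. Its members are the nuclei to which the authors' metadata give the class Epithelial Cell, with all stages pooled. They came from 4 single-nucleus RNA libraries of C57BL/6J superior colliculus, the layered midbrain structure that receives input from the eye: 1 library each from embryonic day 19 (E19) and postnatal days 4, 8 and 21 (P4, P8, P21). No genotype or treatment is named for any library, each was made from the pooled tissue of several animals, and none has a replicate. Differences between stages are therefore described without a test. Those between this class and others are too, because the class coincides with a cluster formed on the same genes. The intervals given are 95% intervals of counting error only. The genes go against the class label in part: Cdh1, which encodes E-cadherin, was present, while the keratins and claudins of common epithelia, Epcam, and the genes that define choroid plexus and ependyma were at or near 0. The genes highest against other nuclei or against vascular fibroblasts were transporters (Slc47a1, Slc47a2, Slc4a10, Slc26a7), matrix genes (Itgbl1, Adamtsl3, Fn1, Mgp) and mesenchymal transcription factors (Bnc2, Tbx15), and the class is called here by its deposited name or by those genes.

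As background, the surface of the brain is covered by the leptomeninges, layers of collagen-producing fibroblasts that lay down the pial basement membrane. Above them, in the arachnoid, lies a sheet of cells joined by tight junctions and E-cadherin, which separates cerebrospinal fluid from the dura and carries efflux transporters. True epithelia of the brain are few, chiefly the choroid plexus, which secretes cerebrospinal fluid, and the ciliated ependyma that lines the ventricles. SLC47A1 and SLC47A2 are multidrug and toxin extrusion proteins, which export organic cations in exchange for protons.

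The share of nuclei in the class was 0.503% at E19 (13 nuclei, exact Clopper-Pearson interval 0.268 to 0.858%), 0.712% at P4 (17 nuclei), 1.28% at P8 (32) and 1.78% at P21 (40, 1.27 to 2.41%). Of non-neuronal nuclei it was 3.67, 3.85, 5.83 and 4.84%, with overlapping intervals. Dissection at the brain surface was not measured, so how much covering tissue each library held is unknown. The nuclei held a median of 6457.5 unique molecular identifiers (UMIs) and 2860 genes, close to the 6231 UMIs of the vascular leptomeningeal cells (VLMC, 323 nuclei), the class of brain fibroblasts used as the main comparison. The 4 libraries held 19277512 to 31325079 UMIs in all, and the class 61855, 135306, 208407 and 274856 at E19, P4, P8 and P21. Median mitochondrial UMIs were 0.648% in the class and 0.616% in VLMC. All 102 nuclei lay in cluster 26 of the authors' clustering, which held no others, and none carried a label of either reference set in the metadata. Across libraries 9 barcodes were shared, none of them carried by the class.

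The first question was whether the genes fit the word epithelial. Levels are given as counts per 1000000 UMIs of the class (CPM), and are compared within a gene only, since the counts are not corrected for gene length. Of 24 genes of common epithelia, 17 had no UMI in the 102 nuclei: the adhesion gene Epcam, the keratins Krt5, Krt8, Krt14 and Krt18, the claudins Cldn3, Cldn4 and Cldn7, and the epithelial regulators Esrp1, Esrp2, Grhl2, Ovol2 and Elf3 among them. A count of 0 allows a level of up to 4.41 CPM here (3 UMIs). Only 3 reached 20 CPM: Cdh1 at 391 CPM (345 to 441), Perp, a desmosome-linked membrane protein, at 35.3 CPM (22.6 to 52.5), and the protease inhibitor gene Spint2 at 30.9 CPM (19.1 to 47.2). Cdh1 was measured at 679 (E19), 177 (P4), 403 (P8) and 422 CPM (P21). A Cdh1 UMI was found in 59 of 102 nuclei, 57.8% (43.1% after thinning every nucleus at random to 2300 UMIs). Among neurons, with a median of 10226 UMIs, 0.424% had one. Cdh1 stood at 9.09, 26.4, 16.6 and 54.5 CPM in the VLMC of the same libraries, so that the class was higher in each of them.

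The genes of the brain's own epithelia were at or near 0 as well. Folr1, Clic6, Kcne2, Cldn2 and Sostdc1, which mark choroid plexus, had no UMI, and Ttr, the transthyretin gene that choroid plexus expresses most strongly, stood at 22.0 CPM against 28.4 in VLMC and 26.2 over all other nuclei. The whole choroid plexus list, which holds Igfbp2, a gene that fibroblasts also express, summed to 194 CPM in the class and 867 in VLMC. Of 18 ependymal genes 9 were at 0, Hydin, Tmem212 and Rsph1 among them, and the list summed to 35.3 CPM. Lists of motile cilia genes (0 of 9 measured members at least 2-fold above the other nuclei) and of desmosome and keratin genes (1 of 1, Pkp4) are given against this background: over all 8671 genes at 20 CPM or more, 18.0% were at least 2-fold higher in the class and 18.5% at least 2-fold lower. Defining genes of other cell types of the brain surface were partly absent. Cldn5 and Flt1 of endothelium, Kcnj8 and Higd1b of pericytes, Myh11 and Cnn1 of smooth muscle, and P2ry12 of microglia had no UMI. The neuron list summed to 629 CPM and the haemoglobin list to 542, against 512 and 545 in VLMC, and their part in the levels was not tested. Of 5 endothelial genes measured 3 were nonetheless at least 2-fold above the other nuclei (Abcb1a, Cdh5, Tek), as were 2 of 6 pericyte genes (Anpep, Atp13a5), 1 of 1 smooth muscle genes (Mylk) and 0 of 1 microglial genes. Endothelial genes summed to 435 CPM, of which Cdh5 gave 113, pericyte genes to 285, microglial genes to 57.3 and genes of dividing cells to 11.8. The heat map of marker lists shows these sums for every class.

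**Figure D1:**
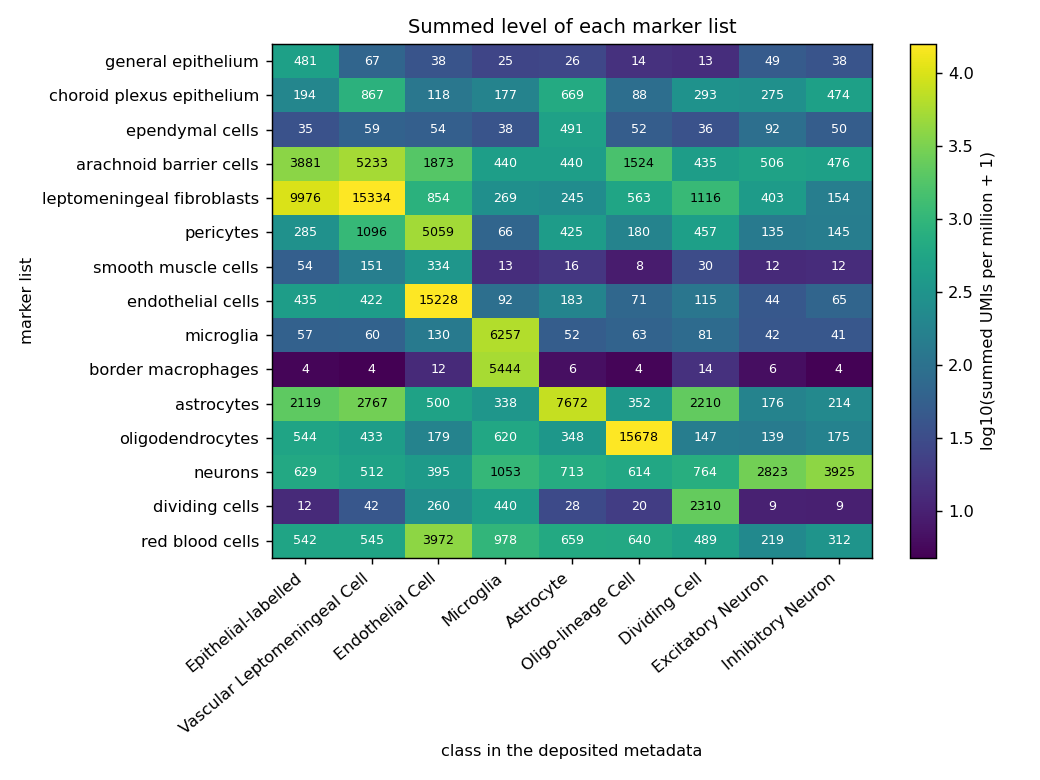
Each cell gives the summed level of a marker list (rows) in a class of the deposited metadata (columns), in CPM as printed, on a log10 colour scale. The Epithelial Cell class stands at 481 for general epithelium, of which Cdh1 gives 391, and has its highest sums for the arachnoid barrier (3881) and fibroblast (9976) lists.

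Most genes on a list of arachnoid barrier markers were higher in the class than in the other nuclei. The list was chosen with earlier results of these data known. It holds Slc47a1 and Cdh1, which rank among the genes with the largest ratios, so its counts are a description only. Over all genes measured against the other nuclei, 18.0% were at least 2-fold higher. Of 9 members measured at 20 CPM or more in the class or in the other nuclei, 8 were at least 2-fold higher in the class, with a median log2 ratio of 4.46 against 0.16 for all genes measured. They comprised Cdh1, Dpp4, a membrane peptidase (147 CPM), the tight junction claudin Cldn11 (282 CPM), the transcription factor gene Klf5 (235 CPM), the efflux pumps Abcb1a (229 CPM) and Abcg2 (295 CPM), Slc47a1 and the prostaglandin D synthase gene Ptgds (492 CPM). The remaining member, the junction scaffold gene Tjp1, stood at 661 CPM against 450.2 in the other nuclei. The list holds 14 genes. Krt8 and Krt18, which were at 0, and Crabp2, Wnt6 and Msx1 stayed below 20 CPM on both sides and are not in these counts. All 9 members measured reached 20 CPM in the class itself, so the count and the median lean towards members present in the class. Against VLMC, 7 of 12 measured members were at least 2-fold higher in the class and 3 lower (Ptgds, Crabp2, Wnt6), where 8.18% of all 8253 genes measured were higher and 8.35% lower. The summed list was 3881 CPM in the class and 5233 in VLMC. It was 3389 against 977 once Ptgds, a member lower in the class, was left out and Slc47a1 was kept. At least 3 members of the list had a UMI in 92 of 102 nuclei of the class and in 224 of 323 VLMC, or in 67 and 114 after thinning.

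Leptomeningeal fibroblast genes were present, most of them below their level in VLMC. Against all other nuclei 15 of 18 measured members were at least 2-fold higher, where 18.0% of all genes measured were. UMIs of at least 3 members were found in 101 of 102 nuclei. Against VLMC 13 of 19 members were at least 2-fold lower, where 8.35% of all genes measured were. The fibrillar collagen gene Col1a1 stood at 178 CPM against 638, Col1a2 at 384 against 851, and Col3a1 at 185 against 807. The GABA transporter gene Slc6a13, present in 93.8% of VLMC, had 7 UMIs in the class, 10.3 CPM against 1050.1. Bnc2, a zinc finger gene, was the member that went the other way, at 6816 CPM against 921. Foxd1, Foxc1 and Zic1, transcription factors of the meninges, were at 316, 83.8 and 373 CPM against 177, 125 and 386 in VLMC. The fibroblast list summed to 9976 CPM in the class and 15334 in VLMC, and without Bnc2 to 3159.8 and 14413. UMIs of at least 3 genes from both the arachnoid barrier and the fibroblast list were found in 91 of the 102 nuclei.

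Among genes that separated the class from all other nuclei, Slc47a1 had the largest ratio at 100 CPM or more. It was measured at 469 (E19), 606 (P4), 1507 (P8) and 1222 CPM (P21), against 0, 2.03, 0 and 3.27 CPM in the VLMC of the same libraries, so every library of the class lay far above every library of VLMC. The pooled level was 1118 CPM (1040.4 to 1201), 590.3 times that of VLMC, where 4 UMIs were counted (log2 ratio by counts 7.84 to 11.08). A Slc47a1 UMI was found in 73.5% of the class (69.6% after thinning), 0.929% of VLMC and 0.450% of neurons. Its paralogue Slc47a2 was at 146 (E19), 126 (P4), 461 (P8) and 422 CPM (P21). Slc47a1 (ENSMUSG00000010122) lies at chr11:61343401-61378345 and Slc47a2 (ENSMUSG00000069855) at chr11:61301631-61342860 in GRCm38, both on the minus strand and 540 bases apart, with Slc47a2 downstream. Reads that run on past the end of Slc47a1 would fall in Slc47a2, and how far they add to its counts was not tested.

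The 250 bases before the annotated start of Slc47a2, which lie within that gap, are printed with those of Dpp4, because the pair of genes is later seen to mark different nuclei of the class. Both come from RefSeq, build GRCm38.p6, and each is on the minus strand. Capitals mark matches to the GC box letters GGGCGG or the KLF letters CCACCC on either strand. The other letters searched were GTAAACA (FOX), TGTGGT (RUNX) and AGGTGT (T-box).
Slc47a2, chr11:61342861-61343110: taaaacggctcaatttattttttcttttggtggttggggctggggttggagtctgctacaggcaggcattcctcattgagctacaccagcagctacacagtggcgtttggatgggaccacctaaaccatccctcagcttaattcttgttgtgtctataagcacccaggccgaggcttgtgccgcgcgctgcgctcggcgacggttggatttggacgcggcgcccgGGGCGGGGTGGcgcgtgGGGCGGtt
Dpp4, chr2:62412232-62412481: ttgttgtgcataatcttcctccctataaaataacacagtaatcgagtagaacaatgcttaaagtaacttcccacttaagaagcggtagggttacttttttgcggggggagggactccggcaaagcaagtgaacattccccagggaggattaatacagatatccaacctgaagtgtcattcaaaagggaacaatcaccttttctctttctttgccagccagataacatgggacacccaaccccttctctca
The Slc47a2 window holds GGGCGG at 25 and at 8 bases before the start, the first overlapped by a KLF match on the other strand, and the Dpp4 window holds none of the 5 motifs. Among all 32851 RefSeq windows of this length, 32.7% hold the GC box, 28.1% the KLF, 14.05% the RUNX, 11.8% the T-box and 3.17% the FOX letters.

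Other carriers were among the 25 genes with the largest ratios, called here the leading genes. The chloride and anion exchanger gene Slc26a7 was at 420.3 (E19), 340.0 (P4), 379 (P8) and 386 CPM (P21). Slc9a2, a sodium/proton exchanger, was measured at 178 (E19), 244 (P4), 297 (P8) and 880.5 CPM (P21), and the potassium-chloride cotransporter gene Slc12a7 at 291 (E19), 333 (P4), 312 (P8) and 207 CPM (P21). The monocarboxylate carrier family gene Slc16a9 stood at 538 CPM against 16.6 in VLMC, and Car13, which encodes a carbonic anhydrase, at 198 against 1.89. Slc4a10, a sodium-coupled bicarbonate carrier that neurons also express (318 CPM in inhibitory neurons), was not among the 25 but came next after Slc47a1 against VLMC: 1795 (E19), 3348 (P4), 4309 (P8) and 5959 CPM (P21), and 22.7, 30.5, 24.9 and 46.9 CPM in VLMC. Each of these genes was higher in the class than in VLMC in all 4 libraries.

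Matrix and adhesion genes were also among the leading genes. Itgbl1, which encodes a secreted integrin-like protein and had the next largest ratio after Slc47a1, was at 1584 (E19), 1138 (P4), 1843 (P8) and 1794 CPM (P21). Adamtsl3, of the ADAMTS-like matrix proteins, was at 1229 (E19), 2321 (P4), 1862 (P8) and 1648 CPM (P21). Fn1, the fibronectin gene, was at 1471 (E19), 517 (P4), 719.7 (P8) and 1357 CPM (P21), and endothelial cells had 877 CPM. Mgp, an inhibitor of calcification, stood at 310.1 CPM against 9.0 in VLMC. Ddr2, a receptor for fibrillar collagen, stood at 561 against 307, and Nov (Ccn3), a matricellular protein gene, at 289.5 against 16.6. All 6 were higher in the class than in VLMC in each library.

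Among regulators, Bnc2 had UMIs in all 102 nuclei, at 5869 (E19), 5949 (P4), 6530.5 (P8) and 7673 CPM (P21), against 482, 715, 694 and 1257 CPM in VLMC. The T-box gene Tbx15 was at 582 (E19), 466 (P4), 1180.4 (P8) and 1142 CPM (P21). Eya2 and Prdm6, both transcription regulators, were high but close to VLMC, at 1218 against 638 CPM and 1008 against 698. Rspo3, a secreted Wnt potentiator, was at 226 (E19), 273 (P4), 336 (P8) and 749 CPM (P21), against 15.6 CPM in VLMC. Trabd2b, which encodes a Wnt-cleaving protease, stood at 1401 against 316. Dock5 and Anxa3 and the predicted genes Gm26740, Gm6260 and Gm5860 completed the 25. All 25 were at least 2-fold above the other nuclei in every library. Anxa3, the last by rank, had a log2 ratio of 5.25, and Cped1 and Gm29478, the next in order, had 5.22 and 5.22. At the other end, the 10 genes furthest below the other nuclei included Tmem108 at 13.2 CPM against 419 and Dscam, a neuronal adhesion gene, at 80.8 against 1458. These ranks depend on the settings: after thinning 3 of the 10 stayed among the lowest 10, and with a pseudocount of 20 CPM 5 did, while 21 and 17 of the 25 leading genes stayed among the highest 25. VLMC had 18.0 and 70.6 CPM of Tmem108 and Dscam.

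**Figure D2:**
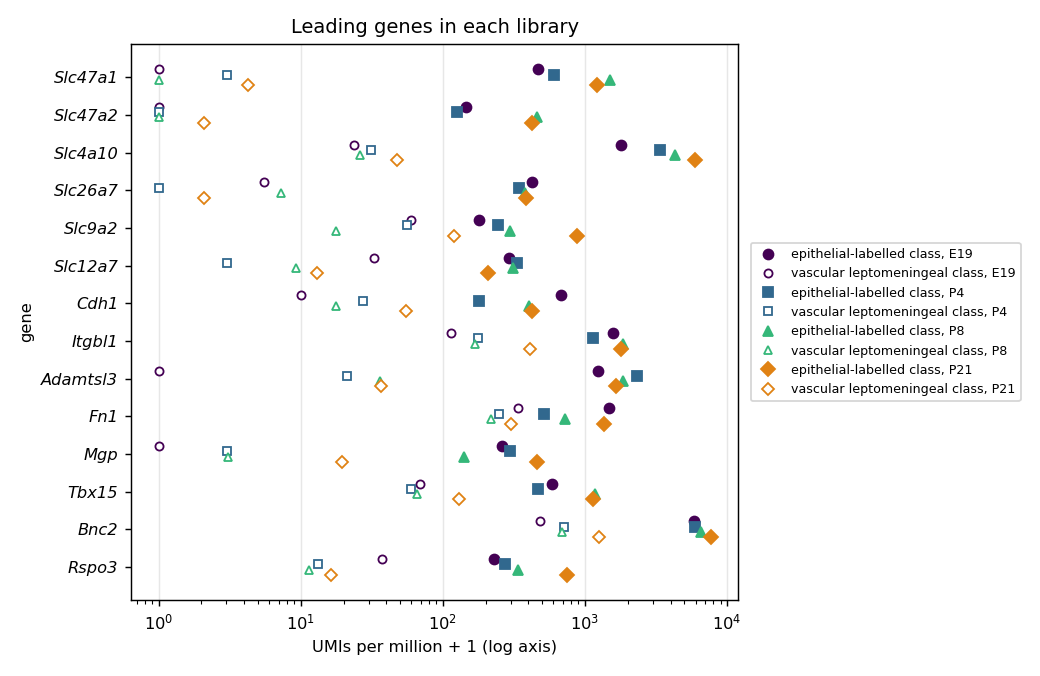
Level of 14 genes (Slc4a10, the others leading genes) in each library, in CPM + 1 on a log axis. Filled symbols are the Epithelial Cell class and open symbols VLMC, with 1 point per library. For every gene the 4 filled points lie to the right of the open points of the same library.

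The leading genes occurred together in single nuclei. A nucleus of the class had UMIs of a median of 20 of the 25 genes (lowest 6, highest 24), and a VLMC nucleus of 6 (lowest 1, highest 14). After thinning to 2300 UMIs the medians were 15 and 4. These genes were chosen on the same nuclei, so the separation is a description of the class. Slc47a1 and Cdh1 were less often together: 35 nuclei of the class had UMIs of both, 40 had Slc47a1 without Cdh1, 24 Cdh1 without Slc47a1 and 3 neither. None of the other nuclei had both, and 40 of those had Slc47a1. Among VLMC only 3 nuclei had Slc47a1 and 29 Cdh1, so nuclei with both would be rare there in any case.

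**Figure D3:**
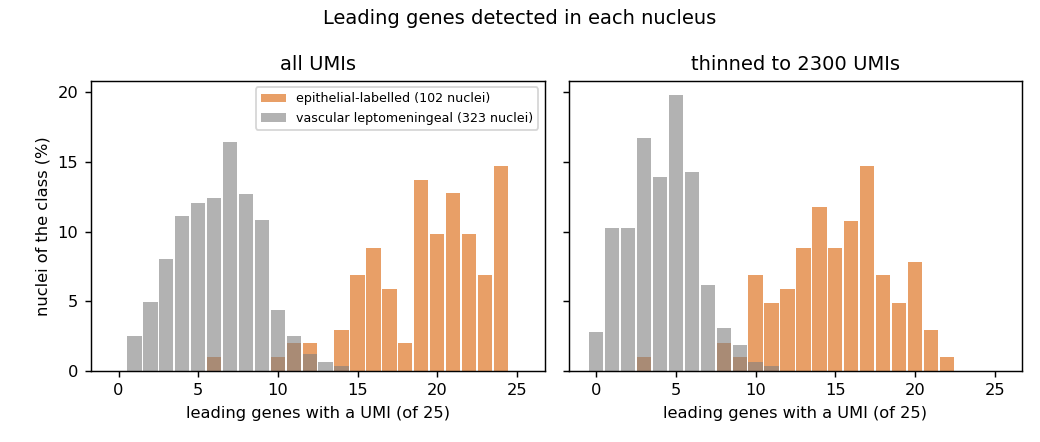
Percent of nuclei of each class by the number of the 25 leading genes with a UMI, at full depth (left) and thinned to 2300 UMIs (right). The Epithelial Cell class centres on 20 genes at full depth and 15 after thinning, VLMC on 6 and 4.

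VLMC were the class most alike. Across 11521 genes the Pearson correlation of log2 levels was 0.854 with VLMC, 0.713 with astrocytes and 0.592 to 0.679 with the other classes. Genes are not independent replicates, and the profiles share libraries, so these values only order the classes. VLMC were therefore taken as the closest comparison.

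The 15 genes furthest above VLMC included Slc47a1, Slc47a2, Slc4a10, Slc26a7, Adamtsl3 and the predicted genes Gm26740, Gm6260, Gm14061 and Gm765. Slit2, a secreted guidance protein, was at 1196 (E19), 2129 (P4), 4199 (P8) and 2005 CPM (P21) in the class and at 54.6, 44.7, 121 and 42.5 CPM in VLMC. Tll1, a matrix metalloprotease of the tolloid family, stood at 679 CPM against 9.0, and the transmembrane collagen gene Col25a1 at 2476 against 73.9. Afap1l1, Map3k5 and Tspan11 had 385, 326 and 199.9 CPM against 3.79, 5.21 and 1.42. All 15 genes named on this side were at least 2-fold higher in each of the 4 libraries.

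The lower side held genes that mark VLMC. Sidt1, a gene of the SID1 transmembrane family, was at 1676 CPM in VLMC and at 5.88 in the class. Basement membrane genes were among them. Col4a6, a type IV collagen chain, had no UMI in the class and 539 CPM in VLMC, at least 122-fold lower, and the laminin gene Lama1 stood at 4.41 against 419. Of 17 basement membrane genes measured, 13 were at least 2-fold lower and 0 higher, where 8.35% and 8.18% of all genes measured were. Their median log2 ratio was -2.64 against 0.01 over all genes. Col4a1, Col4a2, Nid1 and Nid2 were at 54.4, 60.3, 61.7 and 36.7 CPM, against 366, 238, 221 and 264. Aldh1a2, which makes retinoic acid and is a classic marker of leptomeningeal fibroblasts, was at 5.88 CPM against 452. Slc7a11, the cystine/glutamate exchanger gene, was at 23.5 against 2093, and the betaine carrier gene Slc6a12 had no UMI against 179 CPM. All 15 genes named on this side were at least 2-fold lower in each library.

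Transporters thus differed in both directions. Over all 8253 genes measured against VLMC, 8.18% were at least 2-fold higher in the class and 8.35% lower. Of 33 ABC and organic solute carriers measured, 10 were at least 2-fold higher than in VLMC and 18 lower. The higher ones were the efflux pumps Abcb1a (229 against 5.68 CPM), Abcg2 (295 against 81.0) and Abcc1, the prostaglandin carrier Slco2a1, the lactate carrier Slc16a1 (169 against 4.74), the vitamin C carrier Slc23a2 (1186 against 102), the amino acid carrier Slc38a2 (2404 against 406), Slc26a2, Slc26a7 and Slc47a1. The lower ones included the organic anion and cation carriers Slc22a6 (7.35 against 197), Slc22a8 (48.5 against 199) and Slc22a2 (no UMI against 63.0 CPM), Slco1a4 and Slco1c1. Of 26 ion transport genes 10 were higher, among them Slc4a10, Slc4a4, Slc12a2, Slc12a7 and Piezo2, and 7 lower, among them Kcnk2 and Trpm3. Of 19 junction genes 3 were higher (Cdh1, Cdh11, Cldn11) and 2 lower (Cgnl1, Jam3), counts too small to be set apart from the shares over all genes.

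The counts of the next lists stand beside the same shares over all genes, 8.18% higher than VLMC and 8.35% lower. Of 29 interstitial matrix genes measured, 6 were at least 2-fold higher than in VLMC (Fn1, Col8a1, Col8a2, Col12a1, Col14a1, Col25a1). Lower were 10, Col1a1, Col1a2, Col3a1, Postn and Tnc among them, with 13 in neither direction. Of 29 mesenchymal and meningeal transcription factors 9 were higher, among them Bnc2, Tbx15, Klf5, Foxp1 (2925 against 816 CPM), Foxp2 (3438 against 732), Lmx1b (165 against 22.7), Prrx2 and Runx2 (228 against 31.3). The 7 lower ones included Tbx18, Nr2f2 and Osr1. Wnt, BMP and TGF-beta genes were even, 13 higher and 13 lower of 37, and of 15 retinoic acid genes 3 were higher, led by the retinol receptor gene Stra6 (95.5 against 14.7), and 7 lower. Of 13 contractile genes 5 were lower and 0 higher, and of 12 PDGF and Notch genes 4 were lower and 2 higher.

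The nuclei of the class were not alike. Grouping them by k-means on their own expression, a step added after the data had been seen, gave 77 nuclei high in Slc47a1 and 25 high in Dpp4, called here the Slc47a1 group and the Dpp4 group. Of the 5 components used for the grouping, the first held 10.7% of the variance of the 1000 genes used and the second 4.25%. Only 1 nucleus lay near the boundary, and leaving out every gene of the lists, thinning the nuclei, or using 3 or 10 components moved at most 1 nucleus. Asking for 3 groups kept 23 of the 25. Median UMIs were 6637 and 6103, and median mitochondrial shares 0.626 and 0.709%. Because the groups were formed from these genes, the differences between them are descriptions, and 9.88% and 15.9% of the 8146 genes measured were at least 2-fold higher in the Dpp4 and in the Slc47a1 group.

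The cation channel gene Trpm3 and Slc4a10 show the split nucleus by nucleus. Trpm3 took 0.206 to 7.47% of the UMIs of a Dpp4 group nucleus (median 3.87%) and 0 to 1.18% of a Slc47a1 group nucleus (median 0.0944%). In VLMC the median was 4.04%. Slc4a10 ran the other way, with a median of 0.533% in the Slc47a1 group, where every nucleus had a UMI, and of 0% in the Dpp4 group. The ranges of Trpm3 overlap in 21 nuclei of the Slc47a1 group, those at or above the lowest of the Dpp4 group. The Dpp4 group held 6 of 13 nuclei at E19, 1 of 17 at P4, 5 of 32 at P8 and 13 of 40 at P21, 15.6% (5.28 to 32.8%) and 32.5% (18.6 to 49.1%) at the last stages.

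**Figure D4:**
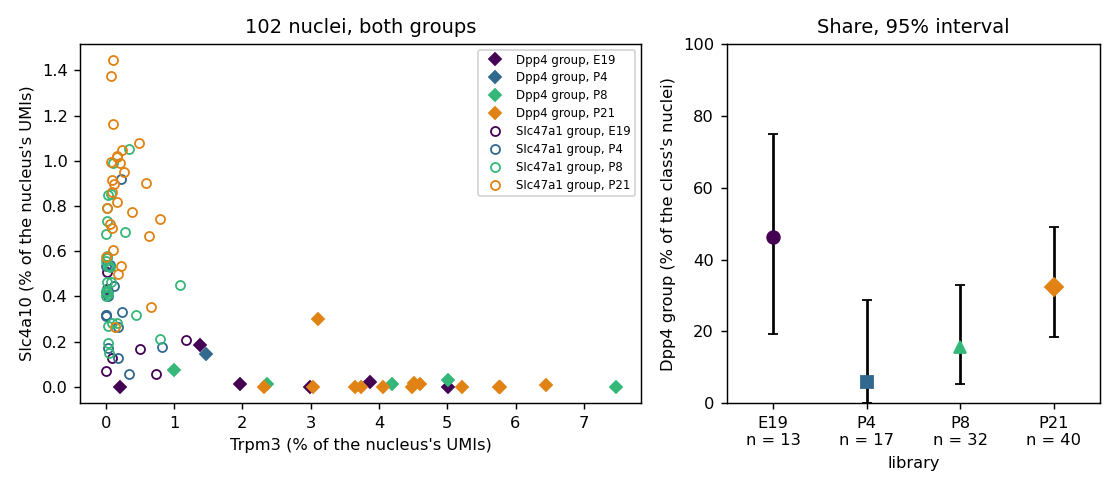
Left, each nucleus of the class by the percent of its UMIs from Trpm3 (x) and Slc4a10 (y), with filled diamonds for the Dpp4 group, open circles for the Slc47a1 group and colour for the library. Right, the Dpp4 group as a percent of the class in each library with its exact 95% interval; the point lies between 5.88% at P4 and 46.2% at E19, and the intervals overlap.

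Over all genes measured, 9.88% were at least 2-fold higher in the Dpp4 group and 15.9% in the Slc47a1 group. Of 19 junction genes measured, 7 were at least 2-fold higher in the Dpp4 group, 3 in the Slc47a1 group (Cdh11, Cdh2, Nectin1) and 9 in neither. Dpp4 was at 607 CPM (493 to 739.7) there and at 3.85 CPM (0.467 to 13.9) in the Slc47a1 group, with UMIs in 20 of 25 and 2 of 77 nuclei (after thinning 17 and 1). Cdh1 had UMIs in all 25 nuclei of the Dpp4 group and in 34 of the Slc47a1 group, at 910.4 CPM (769 to 1070.1) and 229 CPM (190.0 to 274). Among tight junction genes higher in the Dpp4 group were Tjp1 at 2069 and 224 CPM, the occludin gene Ocln at 198 and 7.71, and Cldn11 at 780.4 and 127. Of 9 arachnoid barrier genes measured, 7 were at least 2-fold higher in the Dpp4 group and 1, Slc47a1, in the other. The summed list was 7401 and 2786 CPM, where all VLMC had 5233. Cubn, a receptor for protein uptake, had the largest ratio among genes higher in the Dpp4 group, at 657 CPM (537 to 794) and 3.85 CPM (0.467 to 13.9), with 19.4 CPM in VLMC. The amino acid carrier family gene Slc7a14 was at 948 and 13.5 CPM.

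In several genes the Dpp4 group stood nearer to VLMC than the Slc47a1 group did, and in others the reverse held. Of 17 fibroblast genes measured, 7 were at least 2-fold higher in the Dpp4 group, where 9.88% of all genes measured were. The 3 higher in the Slc47a1 group, where 15.9% of all were, were Cemip, Col1a1 and Col1a2. The class as a whole was at least 2-fold below VLMC in these 3, so there the Slc47a1 group was the nearer. Trpm3 was at 38815 CPM in the Dpp4 group, 1840.2 in the Slc47a1 group and 38683 in VLMC. Ranbp3l was at 2316, 42.4 and 3339.8 and Ptgds at 1753, 100.2 and 4255 CPM in that order. Other VLMC genes were low in both groups: Slc6a13 was at 31.0 and 3.85 against 1050.1 CPM, and Sidt1 at 12.4 and 3.85 against 1676. All 15 genes furthest below VLMC in the class as a whole were at least 2-fold below VLMC in each group. These genes were chosen on the pooled class, of which each group is a part, so this follows largely from the choice. No doublet caller was run, and the part of mixed droplets in the Dpp4 group was not tested. Among VLMC 48 nuclei had a Dpp4 UMI, 29 a Cdh1 UMI and 9 both, against 20 of 25 with both in the Dpp4 group.

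Transporters lay in both groups, where the shares over all genes measured were 9.88% (higher in the Dpp4 group) and 15.9% (higher in the Slc47a1 group). Of 26 ABC and organic solute carriers measured, 11 were at least 2-fold higher in the Dpp4 group, Abcb1a, Slc22a6 and Slc22a8 among them, and 9 in the Slc47a1 group. Of 24 ion transport genes 5 were higher in the Dpp4 group and 9 in the Slc47a1 group. Slc47a1 had UMIs in 71 of 77 nuclei against 4 of 25 (after thinning 68 and 3), at 1428 and 124 CPM. Slc47a2 was at 451 and 24.8, Slc26a7 at 474 and 68.1, and Slc38a2 at 2902 and 805 CPM. Slit3, a secreted guidance protein, was at 2102 CPM and had no UMI in the Dpp4 group, and Slit2 was at 3249 and 632. The alkaline phosphatase gene Alpl, at 224 CPM, was likewise absent from the UMIs of the Dpp4 group. The osteoblast transcription factor gene Runx2 was at 297 and 6.19 CPM and Tbx15 at 1204 and 211. Cdh11, the cadherin of mesenchymal cells, was at 1520.3 and 309.7, so that the cadherins Cdh1 and Cdh11 lay in opposite directions. Of 26 interstitial matrix genes 15 were at least 2-fold higher in the Slc47a1 group, Col1a1, Col1a2 and Col12a1 among them, and 2 in the Dpp4 group (Fn1, at 2638 against 497 CPM, and Col6a3). Of 26 transcription factors 13 were higher in the Slc47a1 group and 3 in the Dpp4 group (Foxc1, Klf5, Zic2).

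Some leading genes were common to both groups. Bnc2 was at 6268 CPM in the Dpp4 and 6987 in the Slc47a1 group, Itgbl1 at 1963 and 1565, Mgp at 273 and 322, and Slc9a2 at 718 and 447. Of the 25 leading genes 12 differed by less than 2-fold between the groups, 11 were higher in the Slc47a1 group and 2 (Cdh1, Fn1) in the Dpp4 group. Each group taken alone was at least 2-fold above the other nuclei in 25 (Slc47a1 group) and 24 (Dpp4 group) of them. The correlation of the groups with each other was 0.847, and with VLMC 0.820 for the Dpp4 and 0.834 for the Slc47a1 group. The Dpp4 group held 161459 UMIs and the Slc47a1 group 518965, and the part of this difference in the correlations was not tested.

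**Figure D5:**
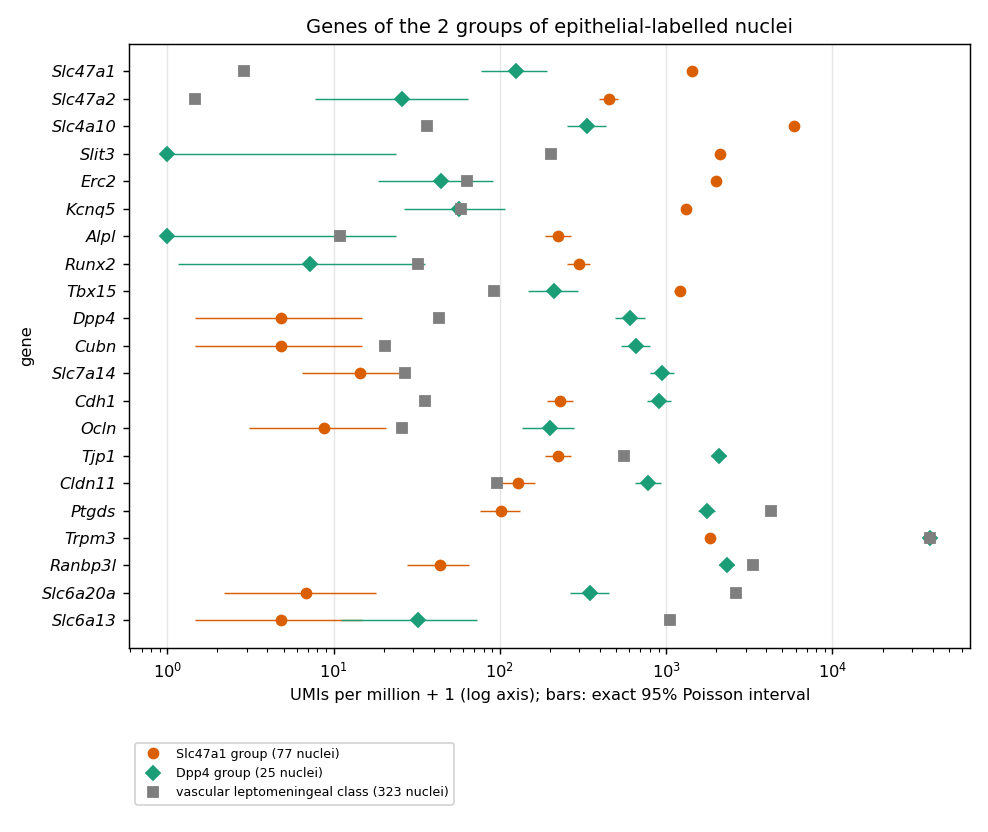
Level of 21 genes in the Slc47a1 group (circles), the Dpp4 group (diamonds) and VLMC (squares), in CPM + 1 on a log axis, with exact 95% Poisson bars for the groups. Slc47a1 to Tbx15 are higher in the Slc47a1 group, Dpp4 to Slc6a13 in the Dpp4 group, and Trpm3 in the Dpp4 group coincides with VLMC (38815 and 38683).

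Stages could be compared between P8 and P21, the libraries with at least 20 nuclei of the class. The beta-tubulin gene Tubb2b was at 954 (E19), 436 (P4), 278 (P8) and 3.64 CPM (P21), Tubb5 at 808 (E19), 355 (P4), 211 (P8) and 7.28 CPM (P21), and Tubb2a at 437 (E19), 296 (P4), 249.5 (P8) and 36.4 CPM (P21). The P21 level of Tubb2b is that of 1 UMI. VLMC had the same direction, with Tubb2b at 718, 528, 241 and 9.81 CPM. Of 1146 genes at 200 CPM or more at either age, 6.81% were at least 2-fold higher at P21 and 4.45% at least 2-fold lower. With 1 library per age, litter, dissection and age cannot be told apart.

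Other genes were lower at P21 in the class without a like difference in VLMC. Kcnq5, a potassium channel gene, was at 1795 (E19), 2032 (P4), 1319.5 (P8) and 113 CPM (P21) in the class, and at 59.1, 77.2, 51.9 and 49.0 CPM in VLMC. Its log2 ratio of P21 over P8 was -3.49 (-4.13 to -3.01 by counts). The elastin gene Eln was at 226 CPM at P8 and 18.2 at P21, against 74.8 and 80.7 CPM in VLMC, and Fam19a1 (Tafa1), a secreted protein gene, at 705 CPM at P8 and 58.2 at P21, against 72.7 and 57.8 CPM. Within the 27 and 27 nuclei of the Slc47a1 group alone Kcnq5 was at 1603 CPM at P8 and 152 at P21 and Fam19a1 at 861 CPM at P8 and 75.8 at P21. All 8 genes named as lower at P21 remained at least 2-fold lower within that group, where 6.21% of 1160 genes were higher and 5.34% lower.

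The genes higher at P21 depended on which nuclei were counted. Of 8 named, 6 were at least 2-fold higher in the Dpp4 group than in the Slc47a1 group (Prg4, Ranbp3l, Cacna2d3, Rnf152, Dync1i1, Slc7a14), and the Dpp4 group made up 15.6% of the class at P8 and 32.5% at P21. Rnf152, a ubiquitin ligase gene, was at 28.8 CPM at P8 and 204 at P21 over the class (log2 2.63) and at 23.6 CPM at P8 and 0 at P21 within the Slc47a1 group, which is 4 and 0 UMIs. Slc7a14 was at 101 CPM at P8 and 462 at P21 over the class and at 5.90 CPM at P8 and 10.8 at P21 within it (1 and 2 UMIs), and Cacna2d3, a calcium channel subunit gene, at 57.6 CPM at P8 and 389 at P21 and at 53.1 CPM at P8 and 64.9 at P21. Prg4, which encodes lubricin, had no UMI in VLMC and was at 0 (E19), 29.6 (P4), 4.80 (P8) and 302 CPM (P21). In the Slc47a1 group it was at 0 CPM at P8 and 70.4 at P21. In the Dpp4 group, with 5 and 13 nuclei, it was at 25.8 and 777 CPM.

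Zbtb16 differed less than 2-fold between the groups and was higher at P21. This transcription factor gene was at 453 (E19), 163 (P4), 110.4 (P8) and 542 CPM (P21), so that E19 and P21 were high, and VLMC had 155, 62.9, 33.2 and 159 CPM. Among leading genes Rspo3 and Slc9a2 were also higher at P21 within the Slc47a1 group, Rspo3 at 336 CPM at P8 and 979.6 at P21 and Slc9a2 at 289 CPM at P8 and 785 at P21, while Slc47a1 was at 1792 CPM at P8 and 1775 at P21.

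Of the 75 genes named by rule, 52 overlap another annotated gene (26 on the same strand), and how the counting treated such reads is not given in the sources used here.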

How the data were processed

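Single nuclei of superior colliculus were profiled with 10x Genomics 3-prime chemistry, per the labels' protocols, in 1 library per stage. Per the submitters' processing notes, reads were processed with Cell Ranger 3.0.2 against mm10, and per the labels' protocols with a pre-mRNA reference. The authors deposited raw UMI counts for 31053 genes and 9724 nuclei in 1 matrix, and a table of nuclei with stage, class, cluster and the percent of UMIs from mitochondrial genes, which is used as deposited. How the authors filtered nuclei or removed doublets is not given in the sources used here, and no doublet caller was run. In the table of nuclei 4 coordinate columns were not used.

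UMIs were summed over the nuclei of a class and scaled to counts per 1000000 (CPM). Ratios are log2 of levels plus 5 CPM, over genes at 20 CPM or more in either group, and a gene is counted as higher or lower past a log2 ratio of 1. Intervals are exact (Poisson for levels, Clopper-Pearson for shares, binomial for ratios, 95%) and cover counting error only. No test is given: each stage has 1 library, and the class was formed by clustering on the same genes, so a contrast with other classes over the libraries would not be independent of it. Named genes were the 25 with the largest ratio to all other nuclei among genes at 100 CPM or more, 15 each way against VLMC, the 10 lowest against all other nuclei, and 8 each way between P8 and P21 at 200 CPM or more. The members, 18 marker lists and 12 function lists were chosen with earlier results of these data known. Thinning drew 2300 UMIs from each nucleus, and 0 nuclei were shallower. Gene positions came from GENCODE M21, which held 31011 of 31053 identifiers, and promoters from RefSeq. The set of RefSeq promoters used here had entries for 23 of 42 named genes. The 42 were the leading genes, those furthest above VLMC and those lower at P21. Slc47a1, Cdh1 and Rspo3 had no entry in the set. A few genes are not reported here. The ratio code was tested on simulated data. Python 3.11.15, numpy 2.4.6, scipy 1.17.1, pandas 2.3.3, scikit-learn 1.9.0 and matplotlib 3.10.9 were used. Alternatives comprised other pseudocounts, floors, scalings, weights, thresholds and leaving out each library.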

Additional observations from a re-analysis of the deposited data

Results flagged for a closer look

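A pair of genes lay on opposite sides of VLMC at P8 and at P21, beyond the counting intervals at both ages. Eln, the elastin gene, had a log2 ratio of the class over VLMC of 1.53 (0.94 to 2.26) at P8 and -1.88 (-3.81 to -0.86) at P21. Nav2, a neuron navigator gene, had 2.02 (1.47 to 2.74) at P8 and -0.72 (-1.48 to -0.09) at P21. There is 1 library per age, so the difference between ages was not tested.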

How the results depend on the processing

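Called at a log2 ratio of 2, the class had 4 arachnoid barrier genes higher than VLMC, 7 fibroblast genes lower, 6 ion transport genes higher and 4 lower, 8 Wnt, BMP and TGF-beta genes higher and 7 lower, 4 matrix genes, 3 transcription factors and 0 junction genes lower, and 1 retinoic acid gene higher. With a floor of 10 CPM, 5 choroid plexus genes reached it in place of 2. Leaving out 1 library at a time gave 1 (without E19) to 4 (without P8) junction genes lower than VLMC, in place of 2. Over the function lists the same settings gave counts from 0 (basement membrane, higher) to 18 (solute transporters, lower). The share of the class was 4.70% of non-neuronal nuclei in place of 1.05% of all. Nuclei with at least 3 general epithelium or choroid plexus genes numbered 9 and 3, 0 and 0 after thinning, and 26 and 25 with at least 2. Over genes at 100 CPM or more the correlation was 0.803 with VLMC and 0.608 with astrocytes, and VLMC stayed the most alike class in the 6 settings run. After thinning, 139 genes were higher and 105 lower at P21. For single named genes, 87 of the 350 recomputed ratios to all other nuclei moved beyond their interval, 15 of 300 to VLMC, and none turned. Leaving out P21 kept 19 of the 25 leading genes and 5 of the 10 lowest.

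The settings chosen after seeing the data restricted the class to 1 group of nuclei. In the Dpp4 group 1 choroid plexus gene reached the floor, and in the Slc47a1 group 5 arachnoid barrier genes were lower than VLMC. The P21 over P8 ratio of Rnf152 was -2.52 in the Slc47a1 group, on 4 and 0 UMIs. Median-of-ratios scaling moved the median ratio to all other nuclei from 0.16 to -0.01. No paired test of class against VLMC within the libraries was run. The class coincides with a cluster formed on the same genes, so such a test would not be independent of it. Stages have 1 library each. Class and VLMC values are set side by side within each library instead. E19 and P4 hold 13 and 17 nuclei of the class, where a count of 0 allows up to 48.5 and 22.2 CPM.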

Other observations

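UMIs of the 25 leading genes were not limited to the class: 198 of 323 VLMC nuclei had at least as many of them as the lowest nucleus of the class. The highest VLMC nucleus had 14 and the highest neuron 19, where the median neuron had 1. Of the 15 genes furthest above VLMC, 10 were higher in the Slc47a1 group than in the Dpp4 group and 5 differed by less than 2-fold. Of the 15 furthest below VLMC, 5 were higher in the Dpp4 group: Slc7a11, Slc6a13, Lama1, Aldh1a2 and Slc6a20a, the last at 347 against 5.78 CPM, with 2638 in VLMC.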
